A study of Mus musculus with 12 samples.

Results

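Gpnmb, Mmp12, Cd68, Trem2, Lgals3, Atp6v0d2, Itgax, Cd9, Spp1 and Lpl are genes of macrophages that take up debris and lipid, and the 10 of them were followed through liver RNA among the 27022 genes listed in the count table. They were chosen by symbol, each matched to 1 Ensembl mouse identifier, and they had been proposed from measured values of the diet contrast. Their diet differences are therefore given as a description, and nothing is read from how the fit over all genes calls them. The livers came from 6 female SJL/J mice killed at 11 weeks of age, 3 of them fed a control AIN-93G diet with 50 ppm iron and 3 an iron-loaded diet with 2% carbonyl iron from 6 weeks of age. The mice were fasted in the morning and perfused with PBS, they carried no transgene that the labels name, and all mice of a diet shared 1 cage. What comes from the diet and what comes from the cage therefore cannot be told apart. RNA of 1 piece of the large lobe per mouse went into 1 Trad-KAPA library, in which fragments of the whole transcript are sequenced, and 1 3’-LEXO library, in which reads start near the 3’ end of the transcript. This gave 12 libraries in 4 groups of 3. The questions were whether the diets differed in these genes and whether both kits gave the same picture.

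Macrophages that clear dying cells, red cell remains or excess lipid enlarge their lysosomes, break down the lipid they have eaten, and change the receptors on their surface. Trem2 is a lipid-sensing receptor that signals through the adaptor Tyrobp. Gpnmb is a membrane glycoprotein of late endosomes and lysosomes, Cd68 a heavily glycosylated protein of the lysosomal membrane, and Atp6v0d2 a subunit of the proton pump that acidifies lysosomes. Itgax (CD11c) is an integrin chain that pairs with Itgb2, and Cd9 is a tetraspanin that organises other membrane proteins. Mmp12 is the macrophage elastase, Spp1 (osteopontin) a secreted ligand of Cd44 and of integrins, Lgals3 a galectin that binds damaged lysosomes, and Lpl the lipase that releases fatty acids from lipoproteins. In liver the resident macrophages are the Kupffer cells, which also recycle iron from red cells. Several of these genes are not restricted to macrophages: bile duct cells make Spp1, Cd9 and Lgals3.

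The libraries held between 10724672 and 16553616 counts. A level of 1 CPM (a gene’s counts scaled to the library total) is therefore between 10.7 and 16.6 reads. The hepatocyte markers Alb, Apoa1, Ttr, Hnf4a, Serpina1c and Fgb together took 107600 to 152500 CPM with Trad-KAPA and 49230 to 75010 CPM with 3’-LEXO. All 8 Kupffer cell markers and all 8 general macrophage markers looked at had reads. Control mouse 3 stood apart from the other 2 control mice. Its Kupffer markers summed to 330.8 CPM in Trad-KAPA against 452.7 and 519.1, and to 872.6 CPM in 3’-LEXO against 970.3 and 1149. Its red cell markers, at 151.2 CPM with Trad-KAPA and 1214 CPM with 3’-LEXO, were the highest of the 6 mice in both kits.

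The stretches around the start sites of the genes show what part of them has in common. RefSeq (GRCm38.p6) windows of 250 bases before to 50 bases after the start were found for 8 of the 10 genes, in 10 windows, and Atp6v0d2 and Lpl had no entry. The letters TGANTCA are a loose form of TGACTCA or TGAGTCA, the site of Fos and Jun proteins (AP-1). They stood in 5 of the 10 windows and in 5 of the 8 genes, against 7.81% of all 32851 windows in the table. The match in Trem2 was TGAATCA, which is not that site, and those in Gpnmb, Mmp12, Cd68 and Itgax had C or G at the open base. The stricter letters were not counted over all windows. The 5 windows that hold them are printed here 5’ to 3’ on the strand of the gene. Capitals mark matches to any of the motifs searched, which in these windows are TGANTCA in each and 1 TATAAA in Mmp12.
Gpnmb, chr6:49036268-49036567, plus strand: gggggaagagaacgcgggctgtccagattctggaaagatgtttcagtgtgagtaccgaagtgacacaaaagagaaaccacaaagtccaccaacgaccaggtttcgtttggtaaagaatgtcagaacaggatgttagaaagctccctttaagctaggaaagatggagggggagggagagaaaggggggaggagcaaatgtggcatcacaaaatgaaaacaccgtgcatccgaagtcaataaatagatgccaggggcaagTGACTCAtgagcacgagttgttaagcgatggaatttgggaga
Mmp12, the second of its 2 windows, chr9:7347124-7347423, plus strand: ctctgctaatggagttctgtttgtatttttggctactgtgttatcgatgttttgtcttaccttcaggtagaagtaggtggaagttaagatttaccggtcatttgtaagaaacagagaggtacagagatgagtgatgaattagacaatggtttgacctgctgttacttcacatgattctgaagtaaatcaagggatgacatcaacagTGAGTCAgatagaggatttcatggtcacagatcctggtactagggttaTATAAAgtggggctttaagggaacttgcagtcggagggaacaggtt
Cd68, chr11:69666121-69666420, minus strand: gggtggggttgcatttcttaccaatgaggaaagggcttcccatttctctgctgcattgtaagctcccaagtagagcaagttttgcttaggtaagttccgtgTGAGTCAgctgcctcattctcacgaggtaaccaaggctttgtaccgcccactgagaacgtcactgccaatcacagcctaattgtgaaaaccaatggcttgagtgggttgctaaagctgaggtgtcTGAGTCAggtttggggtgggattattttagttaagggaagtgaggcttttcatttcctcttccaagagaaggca
Trem2, chr17:48346151-48346450, plus strand: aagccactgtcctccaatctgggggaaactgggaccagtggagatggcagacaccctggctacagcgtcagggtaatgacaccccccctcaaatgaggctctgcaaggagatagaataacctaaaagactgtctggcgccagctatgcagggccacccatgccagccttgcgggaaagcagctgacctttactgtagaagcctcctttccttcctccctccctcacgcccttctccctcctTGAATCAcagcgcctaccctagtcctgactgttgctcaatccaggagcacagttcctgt
Itgax, chr7:128129300-128129599, plus strand: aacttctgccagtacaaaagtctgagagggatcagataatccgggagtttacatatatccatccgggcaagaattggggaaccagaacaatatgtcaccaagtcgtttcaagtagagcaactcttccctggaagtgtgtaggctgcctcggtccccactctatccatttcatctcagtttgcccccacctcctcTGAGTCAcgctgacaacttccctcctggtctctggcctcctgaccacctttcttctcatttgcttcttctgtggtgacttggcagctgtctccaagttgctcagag
With the start site counted as the first base, the match began at base 9 in Gpnmb. It began 44 bases before the start site in Mmp12, 9 in Trem2 and 56 in Itgax. Cd68 had a pair of matches, beginning 149 and 24 bases before the start. Lgals3, Cd9 and Spp1 had none. The E-box CACGTG, which Tfeb and Mitf bind in promoters of lysosomal genes, stood in 0 of the 10 windows and in 7.15% of all windows. GAGGAAGT, bound by the macrophage factor PU.1, stood in 2 windows, 113 bases before the start in Spp1 and on the other strand in the first window of Mmp12, against 3.2% of all windows. TATAAA stood in 2 windows against 13.6%. Both strands were searched, TGANTCA and CACGTG read alike on both, and no match overlapped another. A match describes the letters in these windows and is no evidence of binding.

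Across the diets, the genes lay in a wide range of levels and differences. In Trad-KAPA the 3 iron-loaded mice lay above the 3 control mice for 9 of the 10 genes, Atp6v0d2 being the exception, and 24.7% of all tested genes were separated in that direction. In 3’-LEXO this held for 7 of the 9 tested, without Atp6v0d2 and Cd68, against 18.5% of all tested genes, and it also held for Trem2, which lay below the filter on low counts there. Gpnmb and Mmp12 went from a few reads to clear expression, Trem2 stayed scarce, Lpl took the most reads on the iron diet, and Cd9, Spp1 and Lgals3 shifted from one moderate level to another. In whole liver RNA, more cells of a type and more RNA per cell cannot be told apart.

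**Figure D1:**
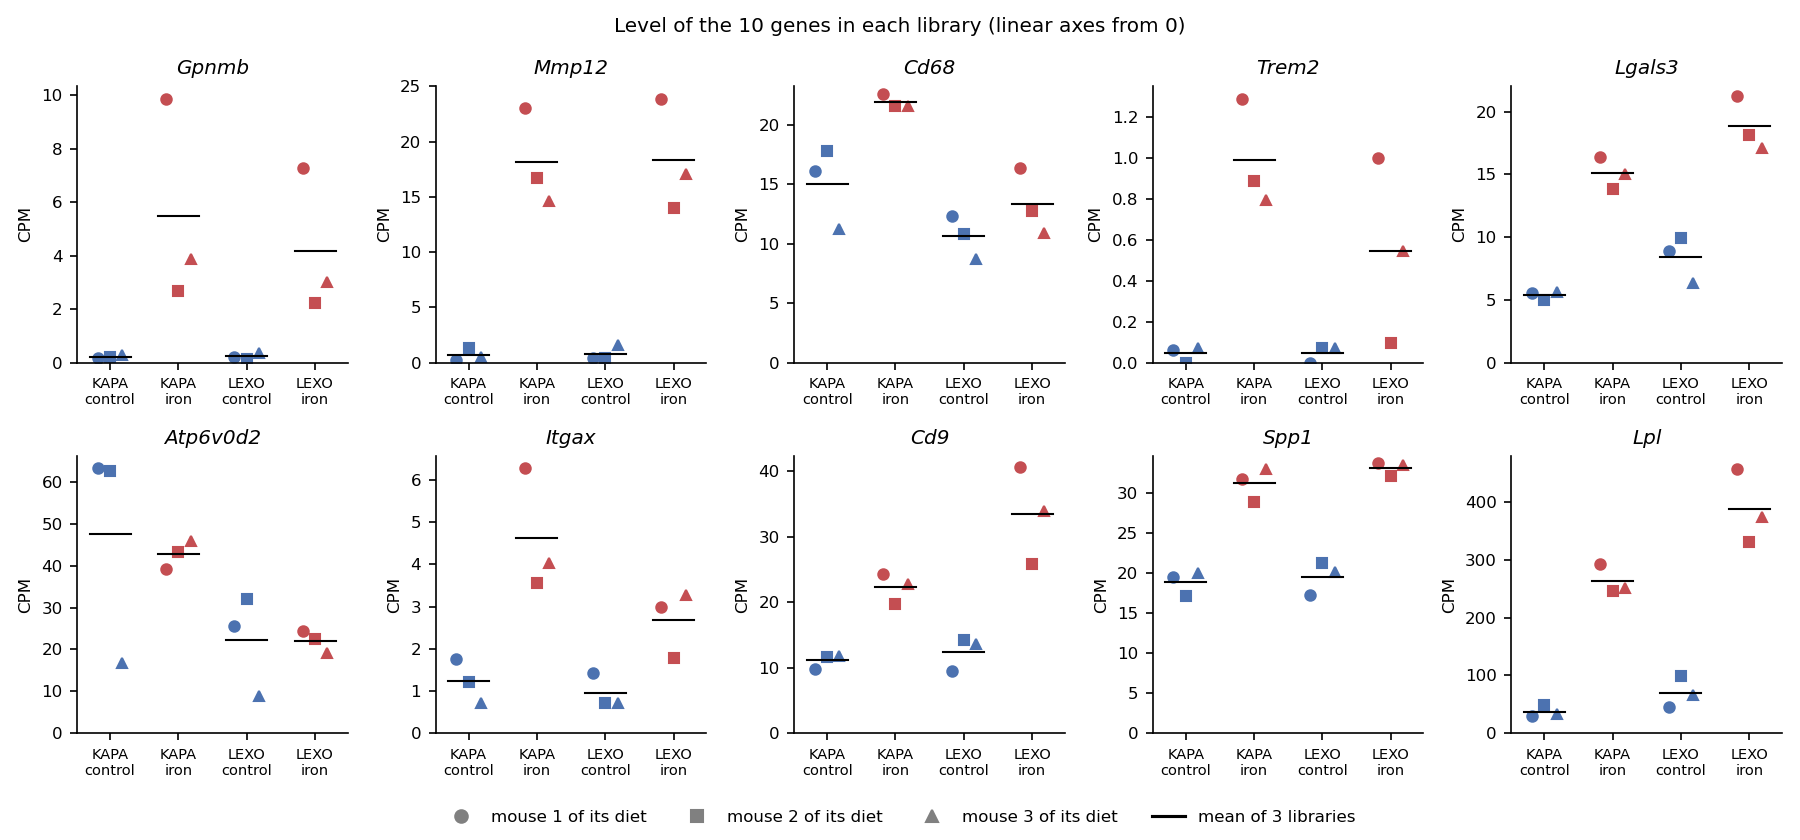
Levels of the 10 genes in CPM (vertical axes, linear from 0) in the 12 libraries, by kit and diet, with 1 point per library, a shape per mouse and a bar at the mean of 3. Gpnmb, Mmp12, Trem2 and Lpl are near the bottom in the controls and higher in iron-loaded mice, apart from 1 3’-LEXO library for Trem2, and for Atp6v0d2 control mouse 3 lies below the rest in both kits.

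Gpnmb (ENSMUSG00000029816, GRCm38 chr6:49036546-49070929, plus strand) was almost silent on the control diet. In Trad-KAPA, control mice 1, 2 and 3 had 0.181, 0.201 and 0.289 CPM, which is 3, 3 and 4 reads, and iron-loaded mice 1, 2 and 3 had 9.85, 2.66 and 3.88 CPM, which is 138, 39 and 54 reads. The 3’-LEXO values were 0.214, 0.143 and 0.355 CPM in the controls and 7.29, 2.24 and 3.00 CPM in the iron-loaded mice. The diets did not overlap in either kit, and iron-loaded mouse 1 lay far above the other iron-loaded mice in both, at 3.01 times their mean with Trad-KAPA and 2.78 times with 3’-LEXO. Because only 10 reads were found in the controls of each kit, the ratio of depth-adjusted reads is wide: 24.6 with Trad-KAPA (95% exact interval for counting error only, 13.1 to 52.0) and 18.4 with 3’-LEXO (9.73 to 39.1).

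Trem2 (ENSMUSG00000023992, chr17:48346401-48354147, plus strand), the lipid receptor, was the scarcest of the 10. The Trad-KAPA controls had 1, 0 and 1 reads and the iron-loaded mice 18, 13 and 11, or 1.29, 0.888 and 0.791 CPM. In 3’-LEXO the controls had 0, 1 and 1 reads and the iron-loaded mice 13, 1 and 6. Mouse 2 of the iron diet was thus no higher in reads than 2 of the controls in that kit, and it lay above them in CPM only because its library was the smallest. The ratio of reads was 22.4 with Trad-KAPA (5.82 to 190.7) and 12.1 with 3’-LEXO (2.94 to 106.8). Trem2 did not pass the filter on low counts in 3’-LEXO, and so has no fitted fold change there.

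Itgax (ENSMUSG00000030789, chr7:128129547-128150657, plus strand), the CD11c chain, was low throughout. Its Trad-KAPA levels were 1.75, 1.21 and 0.723 CPM in control mice and 6.28, 3.55 and 4.02 CPM in iron-loaded mice. Its 3’-LEXO levels were 1.43, 0.716 and 0.709 CPM against 2.99, 1.77 and 3.27 CPM. The groups were separate in both kits, but by little in 3’-LEXO, where the lowest iron-loaded mouse had 19 reads and the highest control 20 from a larger library. Of the positions at which a read of 50 bases can start in Itgax, 8.02% carry a sequence also found in its neighbour in the family, Itgad.

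Cd9 (ENSMUSG00000030342, chr6:125460266-125494791, minus strand), the tetraspanin, was higher on the iron diet without overlap. In Trad-KAPA the controls had 9.85, 11.7 and 11.9 CPM and the iron-loaded mice 24.3, 19.7 and 22.8 CPM. In 3’-LEXO they had 9.43, 14.2 and 13.5 CPM and 40.7, 25.8 and 33.9 CPM. Its exons overlap those of Gm26728 on the opposite strand by 218 bases, and 14.4% of its 50-base sequences also occur in other genes.

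The secreted proteins differed more among themselves. Mmp12 (ENSMUSG00000049723, chr9:7344381-7369499, plus strand), the elastase, had 0.242, 1.27 and 0.506 CPM in the Trad-KAPA controls and 23.1, 16.7 and 14.6 CPM in the iron-loaded mice. The 3’-LEXO controls had 0.429, 0.429 and 1.56 CPM and the iron-loaded mice 23.9, 14.0 and 17.1 CPM. Every iron-loaded library was above 10 times the control mean of its kit. Which control mouse was highest changed with the kit: control mouse 2 had 19 reads with Trad-KAPA and 6 with 3’-LEXO, and control mouse 3 had 7 and 22. From 30 control and 770 iron-loaded reads in Trad-KAPA the ratio was 27.3 (19.0 to 40.8), and from 34 and 649 reads in 3’-LEXO it was 23.1 (16.4 to 33.7).

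Spp1 (ENSMUSG00000029304, chr5:104435118-104441050, plus strand), osteopontin, showed a small and even difference. Trad-KAPA gave 19.5, 17.1 and 20.0 CPM in the controls and 31.7, 28.8 and 33.1 CPM in the iron-loaded mice. The corresponding 3’-LEXO levels were 17.3, 21.3 and 20.1 CPM and 33.7, 32.2 and 33.5 CPM. The iron-loaded mice were close to each other and apart from the controls in both kits. Gm42793, a gene model whose type has not been settled in the annotation, shares 309 exon bases with Spp1 on the same strand, so that reads there could have been given to either.

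Lgals3 (ENSMUSG00000050335, chr14:47367751-47386160, plus strand), the galectin, had 5.56, 5.02 and 5.64 CPM in the Trad-KAPA controls against 16.4, 13.9 and 15.0 CPM in the iron-loaded mice. With 3’-LEXO the controls had 8.93, 9.95 and 6.31 CPM and the iron-loaded mice 21.2, 18.2 and 17.1 CPM. The lowest iron-loaded library was above the highest control in each kit, and no 50-base sequence of Lgals3 is shared with another gene.

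The lysosomal pair behaved otherwise. Cd68 (ENSMUSG00000018774, chr11:69664213-69666153, minus strand), the usual marker of phagocytes in tissue sections, had 16.1, 17.8 and 11.2 CPM in the Trad-KAPA controls and 22.6, 21.6 and 21.6 CPM in the iron-loaded mice, which were nearly equal. The 3’-LEXO libraries gave 12.3, 10.8 and 8.72 CPM and 16.3, 12.8 and 10.9 CPM. There the diets overlapped, as iron-loaded mouse 3 lay below control mouse 1. Control mouse 3 was the lowest of all in both kits.

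Atp6v0d2 (ENSMUSG00000028238, chr4:19876841-19922605, minus strand), the pump subunit, did not differ between the diets in the way of the others. The Trad-KAPA controls had 63.4, 62.6 and 16.8 CPM, and the iron-loaded mice, at 39.3, 43.3 and 45.9 CPM, lay between them. The 3’-LEXO controls had 25.7, 32.1 and 8.86 CPM and the iron-loaded mice 24.4, 22.4 and 19.2 CPM. Control mouse 3 was low in both kits, 3.74 times below the control median with Trad-KAPA and 2.90 times with 3’-LEXO. Without that mouse the fitted difference in Trad-KAPA moved from -0.20 to -0.59 ± 0.12 on the log2 scale (iron-loaded against control, SE). Atp6v0d2 was then called lower (edgeR, adjusted p = 0.0382). In 3’-LEXO the difference moved from -0.06 to -0.43 ± 0.18 and was not called. These values are a description, given because that mouse was seen to be low. The low Kupffer markers and high red cell markers of control mouse 3 stand beside this result, and their part in it was not tested.

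Lpl (ENSMUSG00000015568, chr8:68880491-68907448, plus strand), lipoprotein lipase, took the most reads of the 10 on the iron diet. In Trad-KAPA it went from 28.9, 47.8 and 32.5 CPM in the controls to 293.2, 245.8 and 250.3 CPM in the iron-loaded mice. In 3’-LEXO it had 44.4, 98.2 and 66.2 CPM and 457.4, 331.3 and 373.5 CPM. Control mouse 2 was the highest control in both kits, and every iron-loaded mouse lay far above it. Of the reads of all 10 genes, Lpl made up 27.2% ± 6.6 (SD, n = 3) in Trad-KAPA controls and 61.8% ± 0.96 in iron-loaded mice, and 47.2% ± 8.9 and 72.5% ± 0.55 in 3’-LEXO. Without Lpl, the other 9 genes summed to 67.1 to 116.9 CPM in the Trad-KAPA controls and 151.1 to 174.7 CPM in the iron-loaded mice, and to 60.3 to 89.7 CPM and 129.4 to 171.6 CPM in 3’-LEXO.

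The fitted differences, from edgeR’s quasi-likelihood fit over all genes of a kit, were widest for the genes that were nearly silent in the controls. On the log2 scale (iron-loaded against control, ± SE) they were 4.68 ± 0.40 in Trad-KAPA and 4.42 ± 0.42 in 3’-LEXO for Mmp12, 4.49 ± 0.62 and 4.02 ± 0.58 for Gpnmb, and 4.18 ± 0.65 in Trad-KAPA for Trem2. Lpl followed with 2.78 ± 0.19 and 2.42 ± 0.26, then Itgax with 1.82 ± 0.33 and 1.43 ± 0.39, and Lgals3 with 1.41 ± 0.14 and 1.11 ± 0.18. The values were 0.93 ± 0.13 and 1.37 ± 0.21 for Cd9, 0.65 ± 0.12 and 0.70 ± 0.14 for Spp1, 0.48 ± 0.15 and 0.27 ± 0.19 for Cd68, and -0.20 ± 0.39 and -0.06 ± 0.35 for Atp6v0d2. The median over the 10 genes in Trad-KAPA was 1.61 and over the 9 tested in 3’-LEXO 1.37, where all tested genes had medians of 0.02 and 0.01. In Trad-KAPA 8 of the 10 passed an adjusted p of 0.05 as higher, against 8.77% of the 13151 genes tested, and in 3’-LEXO 6 of 9 did, against 3.17% of 13301. The genes called in both kits were Gpnmb, Mmp12, Lgals3, Cd9, Spp1 and Lpl. The call of Spp1 in 3’-LEXO was lost without any 1 control mouse or iron-loaded mouse 3, and DESeq2 called Itgax there. Gpnmb, Mmp12 and Trem2, and Itgax in 3’-LEXO, had too few control reads to pass the filter on low counts without their iron-loaded libraries. For this reason, and as the genes were proposed from this contrast, nothing is read from these counts.

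**Figure D2:**
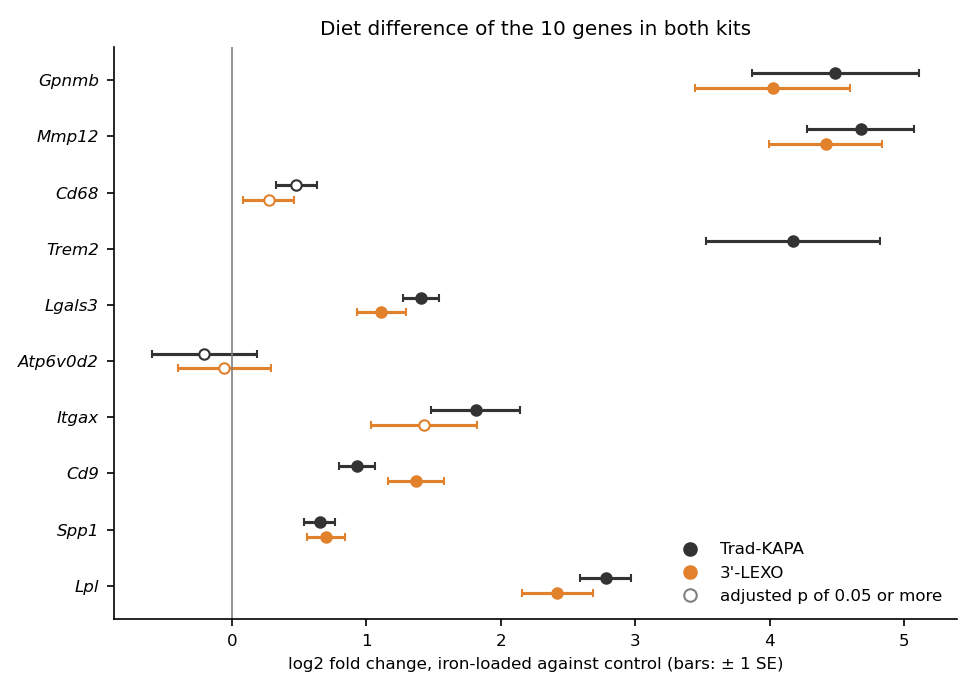
Log2 fold change of iron-loaded against control mice (horizontal axis, ± 1 SE) for each of the 10 genes in Trad-KAPA (dark) and 3’-LEXO (orange), with open symbols at an adjusted p of 0.05 or more and no 3’-LEXO value for Trem2. The values run from -0.20 for Atp6v0d2 to 4.68 for Mmp12, both in Trad-KAPA, and the kits lie close to each other.

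Iron-loaded mouse 1 had the highest level of its diet for 8 of the 10 genes in Trad-KAPA, with Atp6v0d2 and Spp1 as exceptions, and for 9 in 3’-LEXO, where Itgax was the exception. Among all tested genes it was the highest of its diet for 51.5% with Trad-KAPA and 47.4% with 3’-LEXO. The highest control mouse changed from gene to gene, and it was the same in both kits for 3 of the 10. Iron-loaded mouse 1 also had the highest Kupffer marker sum of its diet, at 690.0 CPM against 593.0 and 600.4 with Trad-KAPA and 1434 against 1154 and 1178 with 3’-LEXO, and the lowest hepatocyte marker sum, at 107600 CPM against 147900 and 152500 and at 49230 CPM against 68950 and 70230. What these sums contribute to its high values was not tested. Without iron-loaded mouse 1 the fitted difference of Gpnmb was 3.80 with Trad-KAPA and 3.37 with 3’-LEXO.

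Whether the diet difference itself depended on the kit was asked in 1 model of all 12 libraries, a test that the choice of the genes did not use. For none of the 10 genes did the kits’ diet differences differ at an adjusted p of 0.05, and none of 14384 genes tested did (0.0% called). With the mouse as a block, so that the kits were compared within mice, 5 genes were called (0.0348%), none of them among the 10. At an unadjusted p below 0.05 there were 402 genes (2.79%) by edgeR and 390 by DESeq2 without the block, and 0 of the 10, and 1026 genes (7.13%) and 2 of the 10 with it. The pair was Cd9 and Lpl, neither of which passed the adjustment. The diet difference of Cd9 was larger in 3’-LEXO by 0.44 ± 0.16 on the log2 scale with the block (edgeR, unadjusted p = 0.015, adjusted p = 0.54), and the error was 0.26 without it (unadjusted p = 0.109). The log2 ratios of 3’-LEXO to Trad-KAPA of Cd9 were -0.06, 0.29 and 0.19 in control mice 1, 2 and 3 and 0.75, 0.39 and 0.57 in the iron-loaded mice, without overlap. The diet difference of Lpl was smaller in 3’-LEXO, at -0.34 ± 0.13 with the block (edgeR, unadjusted p = 0.0171, adjusted p = 0.563) and -0.36 ± 0.33 without it. With the block, a difference of 1 on the log2 scale between the kits lay within 2 SE for Gpnmb (-0.44 ± 0.65), Mmp12 (-0.21 ± 0.51), Itgax (-0.41 ± 0.42) and Trem2 (-0.94 ± 1.79). Closer bounds held for Spp1, at 0.05 ± 0.15, and Atp6v0d2, at 0.13 ± 0.16.

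The kits also gave the genes different shares of their reads, which likewise was not used in choosing them. Averaged over the diets, 3’-LEXO was higher than Trad-KAPA for Lpl, by 0.75 ± 0.17 on the log2 scale (edgeR, adjusted p = 0.001), for Lgals3, by 0.48 ± 0.11 (adjusted p = 0.0012), and for Cd9, by 0.38 ± 0.13 (adjusted p = 0.016). It was lower for Atp6v0d2, by -1.03 ± 0.30 (adjusted p = 0.0061), and for Cd68, by -0.60 ± 0.12 (adjusted p = 0.00051). So 5 of the 10 differed between the kits, against 76.5% of the 14384 genes tested, with 3 higher in 3’-LEXO (38.8% of all genes) and 2 higher in Trad-KAPA (37.6%). Within mice, 3’-LEXO was higher in 6 of 6 for Lpl and Lgals3 and in 5 of 6 for Cd9, and lower in 6 of 6 for Atp6v0d2, Cd68 and Itgax. With the mouse as a block, Itgax, at -0.57 ± 0.21, was called too (adjusted p = 0.0181, and 0.068 without the block), which makes 6 of the 10 against 82.6% of all genes. Cd9 was at 0.37 ± 0.08 with the block (edgeR, adjusted p = 0.00046), and Lpl, Lgals3, Atp6v0d2 and Cd68 were called with it too. In the fits without the block, the call of Cd9 was lost when control mouse 2 (adjusted p = 0.0841), control mouse 3 (0.0515) or iron-loaded mouse 3 (0.0533) was left out. Leaving out a mouse was not tried with the block. For Spp1, at 0.07 ± 0.09, and Gpnmb, at -0.12 ± 0.56, no difference between the kits was detected, with a far tighter error for Spp1. The within-mouse ratios of Mmp12 ran from -1.57 to 1.62 in the controls, where few reads were counted.

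**Figure D3:**
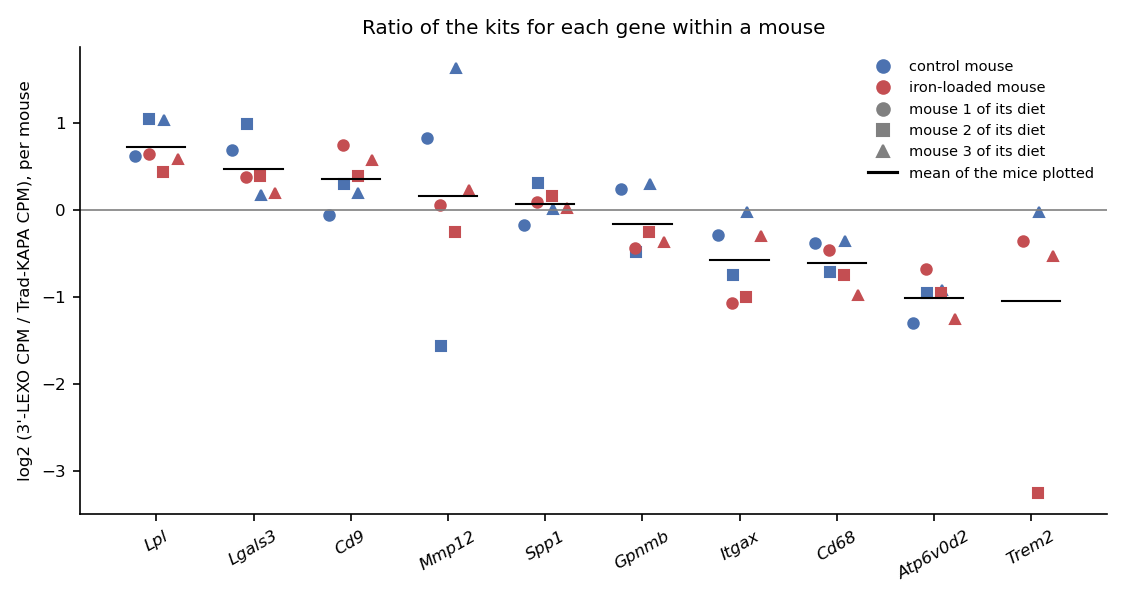
Log2 ratio of 3’-LEXO to Trad-KAPA CPM (vertical axis) within each mouse, for each gene in order of the mean, which the bars show; mice with 0 reads in a kit are left out, so that Trem2 has 4 mice. All 6 mice lie above 0 for Lpl and Lgals3 and below 0 for Cd68, Atp6v0d2 and Itgax, and the Mmp12 controls spread from -1.57 to 1.62.

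For levels between genes, Trad-KAPA counts were divided by the length of the merged exons in GENCODE M21. On the control diet Atp6v0d2 was the highest of the 10, at 17.5 ± 9.8 CPM per kilobase (SD, n = 3), followed by Cd68 at 11.96 ± 2.7 and Spp1 at 11.5 ± 0.93, and these did not differ beyond their spread. Cd9 (5.44 ± 0.54) lay below them and above Lpl (3.48 ± 0.96) and Lgals3 (2.91 ± 0.18), which overlapped. Itgax (0.255), Mmp12 (0.0931), Gpnmb (0.0344) and Trem2 (0.00894) were far below. On the iron diet Lpl was the highest, at 25.1 ± 2.5, above Spp1 (18.9 ± 1.3) and Cd68 (17.4 ± 0.45), which overlapped, and Atp6v0d2 (15.8 ± 1.2) came after them. Cd9 was at 10.9 ± 1.1 and Lgals3 at 8.13 ± 0.69. Mmp12, at 2.502 ± 0.61, stood above Itgax (0.962 ± 0.30) and Gpnmb (0.839 ± 0.59), which overlapped, and Trem2 stayed last, at 0.200 ± 0.053. The length used changed parts of this order. The merged exons of Lpl span 10478 bases and its longest transcript has 4115, and with the latter its levels were 8.85 ± 2.4 and 63.9 ± 6.4. With the longest transcripts Cd9, at 9.05 ± 0.90 on the control diet, overlapped both Cd68 and Lpl. On the iron diet Cd9 then had 18.1 ± 1.9, above Cd68 (17.8 ± 0.46) and Atp6v0d2 (16.9 ± 1.3) in the mean. It overlapped both of them and Spp1 (20.7 ± 1.4). Gpnmb (1.48 ± 1.0) passed Itgax (1.14 ± 0.36), which it overlapped. In 3’-LEXO, where a transcript gives reads regardless of its length, the CPM themselves put Lpl first on both diets, and Atp6v0d2 in the next place on the control diet but behind Cd9 and Spp1 on the iron diet.

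Partners, substrates and relatives of the genes were followed in 5 lists of 75 genes, 74 of them in the table, which like the 10 genes were drawn up with results of these data known. Of 70 tested in each kit, 13 rose and 4 fell on the iron diet with Trad-KAPA and 4 rose and 1 fell with 3’-LEXO, against 8.77% and 8.37% of all genes tested with Trad-KAPA and 3.17% and 2.92% with 3’-LEXO. In both kits 3 rose and 1 fell of 69, against 2.67% and 2.55% of the 12229 genes tested in both.

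**Figure D4:**
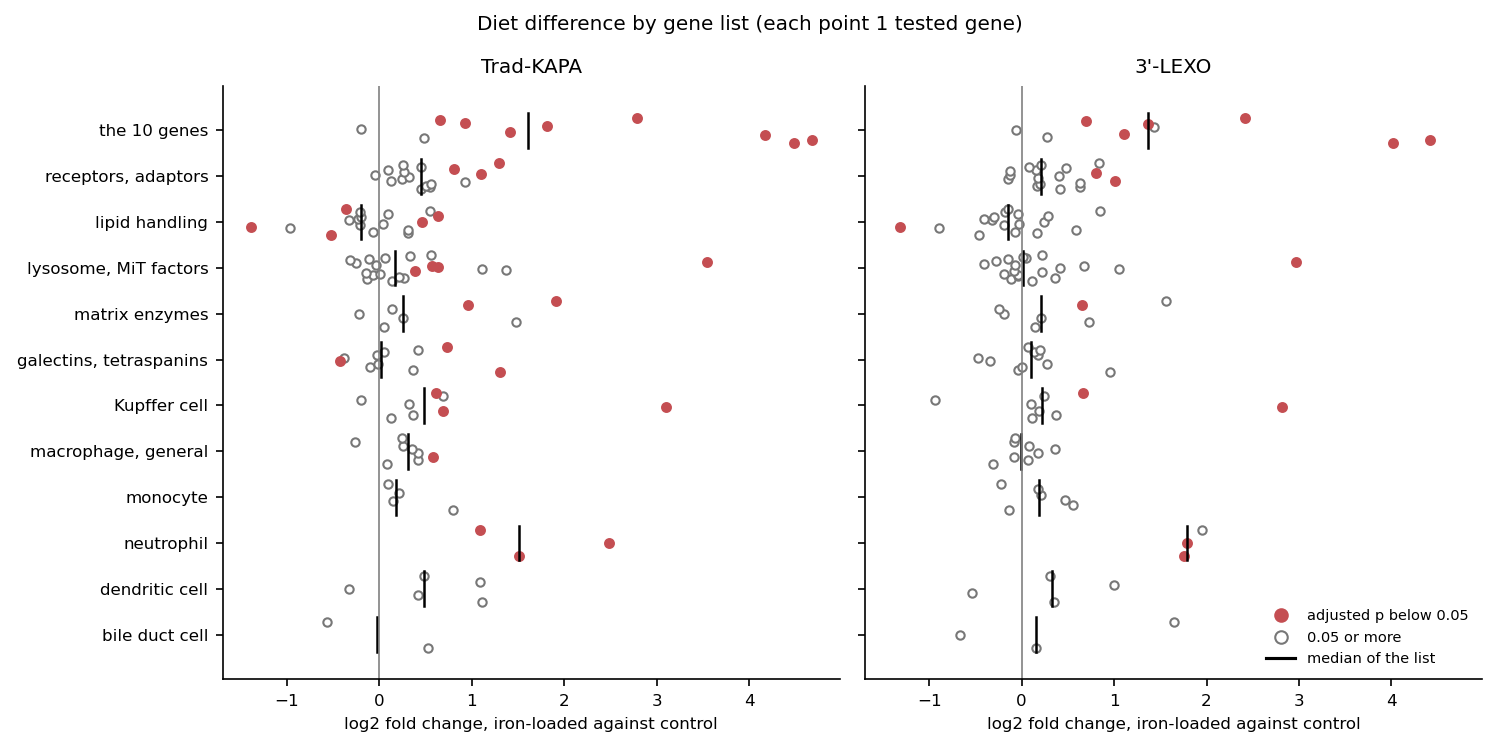
Log2 fold change of iron-loaded against control mice (horizontal axis) for every tested gene of the 10, of the 5 pathway lists and of 6 cell type lists, in Trad-KAPA (left) and 3’-LEXO (right); filled points passed an adjusted p of 0.05 and bars are list medians. The 10 genes have medians of 1.61 and 1.37, receptors and adaptors 0.45 and 0.21, and lipid handling -0.19 and -0.15.

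Among receptors and adaptors, 3 of 16 tested rose with Trad-KAPA and 2 of 17 with 3’-LEXO, with medians of 0.45 and 0.21, and none fell. Itga4, the alpha chain of an integrin that binds osteopontin, rose in both, from 5.01 to 11.2 CPM in Trad-KAPA (log2 difference 1.09 ± 0.23, edgeR, adjusted p = 0.017) and from 3.85 to 6.98 CPM in 3’-LEXO (0.80 ± 0.20, adjusted p = 0.0437). In 3’-LEXO that call was lost without any 1 of the 6 mice (adjusted p 0.0534 to 0.139), and in Trad-KAPA without control mouse 1 (edgeR, adjusted p = 0.0506). The osteopontin receptor Cd44 rose in 3’-LEXO (1.01 ± 0.23, edgeR, adjusted p = 0.0348), a call lost without any 1 mouse but iron-loaded mouse 1 (0.0527 to 0.108). In Trad-KAPA its difference was 0.93 ± 0.30 (adjusted p = 0.068). Control mouse 3 had 3.25 CPM there, against 10.03 and 7.30 in the other controls, and the difference without it was 0.62. Tyrobp, the adaptor of Trem2, had differences of 0.45 ± 0.16 (adjusted p = 0.0811) and 0.41 ± 0.21 (adjusted p = 0.263), and Itgb2, the partner of Itgax, 0.56 ± 0.18 (adjusted p = 0.0641) and 0.63 ± 0.24 (adjusted p = 0.14).

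Genes of lipid handling went both ways. Of 17 tested, 2 rose and 3 fell with Trad-KAPA, and 1 fell with 3’-LEXO, with medians of -0.19 and -0.15. Plin2, which coats lipid droplets, fell from 682 to 273 CPM with Trad-KAPA (-1.39 ± 0.14, adjusted p = 0.0015, edgeR) and from 543 to 227 CPM with 3’-LEXO (-1.31 ± 0.17, adjusted p = 0.0039). Gpihbp1, which holds Lpl on the capillary wall, had 10.1 and 11.3 CPM with Trad-KAPA and 14.3 and 14.5 CPM with 3’-LEXO, with differences of 0.09 ± 0.13 and -0.03 ± 0.15.

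Of the lysosomal genes and their MiT regulators, 4 of 20 rose with Trad-KAPA and 1 of 19 with 3’-LEXO, and none fell. The one in both was Cd63, a tetraspanin of late endosomes, which rose from 0.978 to 12.1 CPM in Trad-KAPA (3.54 ± 0.29, adjusted p = 0.00094, edgeR) and from 29.7 to 243 CPM in 3’-LEXO (2.97 ± 0.19, adjusted p = 0.00018). Of its 50-base sequences 11.1% also occur elsewhere, most of them in Cd63-ps, so that its count is uncertain. Atp6v0d1, the widely expressed relative of Atp6v0d2, had 61.9 and 71.1 CPM in Trad-KAPA and differed by 0.13 ± 0.10 and 0.12 ± 0.15. Of the matrix enzymes, 2 of 7 tested rose with Trad-KAPA and 1 with 3’-LEXO. Timp3, an inhibitor of metalloproteinases, rose in both, by 0.95 ± 0.17 (adjusted p = 0.0099) and 0.66 ± 0.17 (adjusted p = 0.0466), while Timp1 had 0 to 6 reads per library and was not tested. In 3’-LEXO the call of Timp3 was lost in 5 of the 6 fits without 1 mouse, all but the one without iron-loaded mouse 2 (adjusted p 0.058 to 0.147). Of 10 galectins and tetraspanins 2 rose and 1 fell in Trad-KAPA. In 3’-LEXO none was called by edgeR, with 3 at an unadjusted p below 0.05, and DESeq2 called Lgals1.

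Markers of cell types were read beside the 10 genes. Of the 8 Kupffer markers 3 rose with Trad-KAPA and 2 with 3’-LEXO, none fell, and their sums were 330.8 to 519.1 CPM in controls and 593.0 to 690.0 CPM in iron-loaded mice in Trad-KAPA, and 872.6 to 1149 CPM and 1154 to 1434 CPM in 3’-LEXO. Marco, a scavenger receptor, rose by 3.10 ± 0.29 (edgeR, adjusted p = 0.0014) and 2.82 ± 0.33 (adjusted p = 0.0023), and Clec1b, a lectin, by 0.61 ± 0.15 (adjusted p = 0.0286) and 0.67 ± 0.16 (adjusted p = 0.0425). In 3’-LEXO Marco alone had 15.9 to 23.6 CPM in controls and 87.1 to 232.4 CPM in iron-loaded mice. The gap between the 3’-LEXO Kupffer sums, 1149 against 1154 CPM, is smaller than this difference, and no sum without Marco was taken. The defining Kupffer genes Clec4f and Timd4 differed by 0.13 ± 0.15 and 0.37 ± 0.16 in Trad-KAPA and by 0.11 ± 0.17 and 0.38 ± 0.17 in 3’-LEXO, and neither was called. In 3’-LEXO the call of Clec1b was lost without any 1 mouse but iron-loaded mouse 2 (adjusted p 0.0639 to 0.141), and in Trad-KAPA without control mouse 2 or 3 or iron-loaded mouse 2 or 3 (0.0613 to 0.0905), while Marco was called throughout. Of 8 general macrophage markers Mrc1 rose with Trad-KAPA and 0 were called with 3’-LEXO by edgeR or DESeq2, nor was any at an unadjusted p below 0.05, with medians of 0.31 and 0.00 and sums of 261.7 to 406.7 against 454.6 to 480.9 CPM and of 431.9 to 579.8 against 534.7 to 551.8 CPM. The neutrophil genes S100a9 and S100a8 rose in both kits, S100a9 by 2.48 ± 0.41 (adjusted p = 0.0085) and 1.79 ± 0.32 (adjusted p = 0.0143), and S100a8 by 1.51 ± 0.39 (adjusted p = 0.0336) and 1.75 ± 0.38 (adjusted p = 0.0282). S100a8 was called in Trad-KAPA only without iron-loaded mouse 1 or with all mice (0.0558 to 0.109 without any other), and in 3’-LEXO not without control mouse 2 or 3 or iron-loaded mouse 2 or 3 (0.0529 to 0.106). In 3’-LEXO S100a9 was lost without control mouse 2 or 3 (0.0631 and 0.0723). All 6 neutrophil markers together summed to 2.82 to 5.01 CPM in controls and 9.43 to 12.3 CPM in iron-loaded mice in Trad-KAPA. In 3’-LEXO they summed to 8.01 to 18.01 and 27.99 to 60.05 CPM. By edgeR, 3 of 3 tested rose with Trad-KAPA and 2 of 3 with 3’-LEXO, against 8.77% and 3.17% of all genes tested. Csf3r rose with Trad-KAPA by 1.085 ± 0.24 (edgeR, adjusted p = 0.0208) and was not tested with 3’-LEXO. Retnlg, not tested with Trad-KAPA, differed by 1.95 ± 0.52 with 3’-LEXO (edgeR, adjusted p = 0.0546), and DESeq2 called it in both kits. Mpo and Elane averaged below 1 CPM in every group and were not tested by edgeR. No monocyte, dendritic cell, bile duct cell, lymphocyte, adipocyte, hepatocyte or red cell marker was called in either kit by edgeR, with 9 of 26 tested at an unadjusted p below 0.05 in each kit, 4 of them red cell markers with lower levels on the iron diet. DESeq2 called 0 with Trad-KAPA and 1 with 3’-LEXO, Hba-a2. For the diets, the share of all genes at an unadjusted p below 0.05 was not taken. Nothing is therefore read from the unadjusted counts of this or any other list. Bile duct markers summed to 6.10 to 6.63 CPM in controls and 4.78 to 6.00 CPM in iron-loaded mice in Trad-KAPA, and to 12.6 to 16.4 and 11.0 to 12.3 CPM in 3’-LEXO, and Krt19 and Krt7 averaged below 1 CPM in every group. Most of these sums was Sox9, with means of 3.96 and 2.81 CPM in Trad-KAPA and 11.4 and 7.47 CPM in 3’-LEXO. The markers did not move together. In 3’-LEXO Cldn4 went from a mean of 0.309 to 1.03 CPM and Krt7 from 0.143 to 0.380 CPM, both without overlap. Krt19 and Epcam had higher means there and Cftr a lower one, with overlap. Stellate cell markers had 1 rise and 1 fall with Trad-KAPA, and 0 calls with 3’-LEXO by edgeR or DESeq2, with 2 at an unadjusted p below 0.05. Of the sinusoidal endothelial markers, Lyve1 rose in both, by 1.77 ± 0.22 (adjusted p = 0.0037) and 1.16 ± 0.28 (adjusted p = 0.0435), and Stab2 fell in 3’-LEXO. The 3’-LEXO call of Lyve1 was lost without any 1 control mouse or iron-loaded mouse 1 (0.0619 to 0.146). The other markers of this list had negative 3’-LEXO differences. Stab2 was at -0.60 ± 0.13, Kdr at -0.53 ± 0.14 and Dnase1l3 at -0.46 ± 0.14. Clec4g and Oit3 were at -0.32 ± 0.17 and -0.23 ± 0.16, with overlapping diets. DESeq2 also called Kdr there. With 3’-LEXO the list summed to 328.0 to 403.9 CPM in controls and 267.7 to 296.4 CPM in iron-loaded mice, without overlap. The Trad-KAPA sums, 318.9 to 425.8 and 348.4 to 440.3 CPM, overlapped. The part of any of these cell types in the levels of the 10 genes was not tested.

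The genes most like the 10 were sought by their profile over the libraries. For each of 12220 genes, log2 CPM was correlated over the 6 libraries of a kit with the mean standardised profile of the 9 members tested in both kits, and the lower of the 2 correlations was kept. The closest were Smoc2 (lower r 0.989), Marco (0.988), Clec4n (0.986), Gltp (0.985), Chd1 (0.984), Ildr2 (0.984), Apcs (0.977), Ighg2b (0.976), Stbd1 (0.976) and Dusp3 (0.976). These values describe 6 libraries that fall into 2 diets, and 268 genes had a lower r above 0.9. Marco and Clec4n, which encodes Dectin-2, are receptors of macrophages, Smoc2 is a matrix protein, Apcs (serum amyloid P) is made by hepatocytes, and Ighg2b is an antibody chain of plasma cells. Smoc2 went from 9.17 to 60.5 CPM in Trad-KAPA and from 21.2 to 174.4 CPM in 3’-LEXO. The members are part of this profile, which raises their own r with it, and among them Lgals3 (0.962), Lpl (0.953) and Gpnmb (0.949) were closest to the shared profile, Cd68 was at 0.716 and Atp6v0d2 at 0.167. Looked up after its values were seen, the profile of Atp6v0d2 was most like that of Atp2b2, a calcium pump, at an r of 0.992 with Trad-KAPA and 0.914 with 3’-LEXO, with 10.1 CPM in control mouse 3 against 25.4 and 28.6 CPM in the other controls in Trad-KAPA.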

How the data were processed

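RNA of 20 mg of liver from each of 6 mice was used with both kits, 1 µg per library, and sequenced as single reads of 50 bases. Mapping was done by the authors against GRCm38 (STAR 2.5.3a), and they deposited raw counts of reads unique to exons, without normalization or removal of duplicates. The counting program, its annotation and its use of strand are not given in the sources used here. The 10 genes and all lists were chosen with earlier results of these data known. Symbols and exons were taken from GENCODE M21, and 2 listed symbols, Mmp3 and Lep, were not matched. Diet was tested within each kit, and the kit and its interaction with diet over all 12 libraries, with edgeR 4.0.16 (R 4.3.3): TMM, filterByExpr, quasi-likelihood F test, Benjamini-Hochberg adjustment over all genes tested. SE is the log2 difference divided by the root of F. Library totals ranged from 10724672 to 16553616 counts. Intervals for ratios of reads are exact binomial ones at 95% and cover counting error only, since duplicates were kept. The labels number the libraries within each kit and diet but do not name the mouse. The paper compares sample 1 of a diet between the kits as libraries of the same RNA stock, so a number was taken to mark 1 mouse in both kits. Deviations from the group means correlated at 0.435 to 0.765 between a mouse’s libraries (10326 genes with a mean of 50 or more counts). Replicate libraries differed by more than counting noise (chi-square per degree of freedom 5.97 to 59.8). Besides the 10 genes, the rule named, per list, up to 4 genes called in both kits, then Atp6v0d1, Tyrobp, Itgb2, Gpihbp1, Timp1 and Cd44 whatever they did, and the 10 genes most like the members, in log2 CPM with a prior count of 2. Genes named outside this rule were chosen after their values were seen. Alternatives were DESeq2 1.42.0 and its size factors, library totals, no filter, a mean of 10 counts, 10000000 counts per library, the replicate or mouse as a block, and leaving out each mouse. The fits were tested on simulated counts. Python 3.11.15, pandas 2.3.3, scipy 1.17.1 and matplotlib 3.10.9 were also used.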

Additional observations from a re-analysis of the deposited data

How the results depend on the processing

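For the 10 genes, the number called was 8 with Trad-KAPA and stayed between 7 and 9 under the alternatives, and with 3’-LEXO it was 6 and stayed between 5 and 8. The 9 were reached without a filter, which added Cd68 as higher, and without control mouse 3, which added Atp6v0d2 as lower. Gpnmb, Mmp12, Lgals3, Cd9 and Lpl were called in both kits under every alternative run. As the genes were proposed from this contrast, these counts are no support for it. No member's diet difference differed between the kits under any alternative, and 4 to 6 of the 10 differed between the kits. Calls over all genes moved more. For 3’-LEXO they were 811, and 1313 with DESeq2, 2040 without a filter and 436 with the replicate block, and those in the 5 pathway lists were 5, and 10, 14 and 3. Leaving out 1 mouse gave 841 to 2803 calls in Trad-KAPA (2255 with all), fewest without control mouse 2, and 6 to 23 in the lists (17 with all). In 3’-LEXO it gave 199 to 871 calls, fewest without control mouse 3, and 2 to 4 in the lists. The interaction had 0 calls, 7 without a filter and 5 with the mouse as a block. Numbers do not pair mice across diets: deviations of same-numbered mice correlated at -0.0228 to 0.0707 with Trad-KAPA and -0.163 to 0.0964 with 3’-LEXO. That block left 8 members called with Trad-KAPA and 5 with 3’-LEXO. With the mouse as a block, 6 members differed between the kits instead of 5.

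Signs turned for values within about their errors. The diet difference of Atp6v0d2 with 3’-LEXO became 0.084 with the replicate block, and over the fits without 1 mouse it ran from -0.43 to 0.27, and from -0.59 to 0.047 with Trad-KAPA. That of Gpihbp1 with 3’-LEXO was 0.023 with library totals and ran from -0.11 to 0.021 without 1 mouse. The difference of the diet effects turned for Mmp12, at 0.22 with 10000000 counts and -1.41 to 0.80 without 1 mouse, and for Spp1, at -0.023 to 0.18. The kit difference of Mmp12 was -0.016 with 10000000 counts and -0.39 to 0.71 without 1 mouse, and that of Spp1 -0.011 to 0.078. The cause of these changes was not tested. Depth limits Trem2, Gpnmb and Mmp12 in the controls, where 2, 10 and 30 to 34 reads per kit were counted.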
